A study of Bos taurus with 12 samples.

Results

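Signalling through G protein-coupled receptors and the related frizzled receptors was described at 5 genes of the bull (Bos taurus) sperm methylation table: HRH2, CNR1, GNAQ, ADCY9 and FZD3. The members are the tiles, 500 bp windows of the genome, whose annotation description names one of these genes, and there are 17 of them among 7290 listed tiles. The genes were selected on this description, with the deposited differences and q-values of their tiles known, so those values are given as a description. Sperm DNA of male animals was profiled by EM-seq, an enzymatic relative of bisulfite sequencing that turns unmethylated cytosines into bases read as T and leaves methylated ones as C. The labels give 6 samples of a low BFI group and 6 of a high BFI group, and name no strain, age, treatment or genotype. The abbreviation BFI stands unexplained in them, and whether each sample came from another bull is not stated.

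The authors' deposited table holds 1 comparison of these groups and lists a methylation difference with its p-value and q-value for every tile. The difference is read as percentage points. Which group was subtracted is not stated in the labels or the header, so a negative or positive sign says nothing here about which group was more methylated. Values per sample, methylation levels and coverage were not used here. The depth is therefore unknown, no spread between samples can be given, and the sperm label could not be checked against markers. In bulk DNA a change within sperm and a change in the share of other cells of the ejaculate cannot be told apart. The tiles were annotated to these genes as their closest feature, and 16 of the 17 overlap that feature.

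HRH2 encodes the histamine receptor that couples to the stimulatory G protein and so to adenylate cyclase, the enzyme class that makes cyclic AMP from ATP. CNR1 encodes the cannabinoid receptor of brain and of sperm, which couples to inhibitory G proteins and lowers cyclic AMP. GNAQ encodes the alpha subunit that passes a receptor's signal to phospholipase C and calcium. ADCY9 encodes a membrane adenylate cyclase, and FZD3 a receptor for Wnt ligands with a part in planar cell polarity and axon guidance. In sperm, cyclic AMP and calcium drive motility and capacitation, the ripening that precedes fertilization, and much of the cyclic AMP comes from a separate soluble cyclase.

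Each of the 5 genes had at least 1 tile at a q under 0.05 in the authors' deposited table, as did 73.3% of all 540 genes in it. HRH2 and GNAQ had intronic tiles with differences of -9.61 to -6.21 percentage points, CNR1 had a positive difference of 5.13 in its coding sequence, and FZD3 and ADCY9 differed by less than 2. At that q 14 of the 17 tiles passed, 82.4% against a background of 71.8% of all listed tiles. Of the 14 tiles that passed, 13 (92.9%) were negative and 1 was positive, and of all listed tiles that passed 77.8% were negative. As shares of all listed tiles, 55.9% passed with a negative and 15.9% with a positive sign. A difference of at least 10 percentage points at that q was reached by 0 of the 17 tiles, where the background is 2.78%. A difference of at least 5 was reached by 6 of them, all tiles of HRH2, GNAQ and CNR1, beside a background of 15.4%. The median over the 17 tiles was -1.50 percentage points, beside -0.947 over all listed tiles, and the median size was 1.55 beside 1.48. The 17 tiles form only 5 separate stretches of the genome, 1 per gene. FZD3 alone supplies 7 of the 17 tiles and 7 of the 13 negative ones that passed. Both medians are values of FZD3 tiles, so they do not stand for the 5 genes alike. The counts by q lie near the background, and all of these counts are a description.

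**Figure D1:**
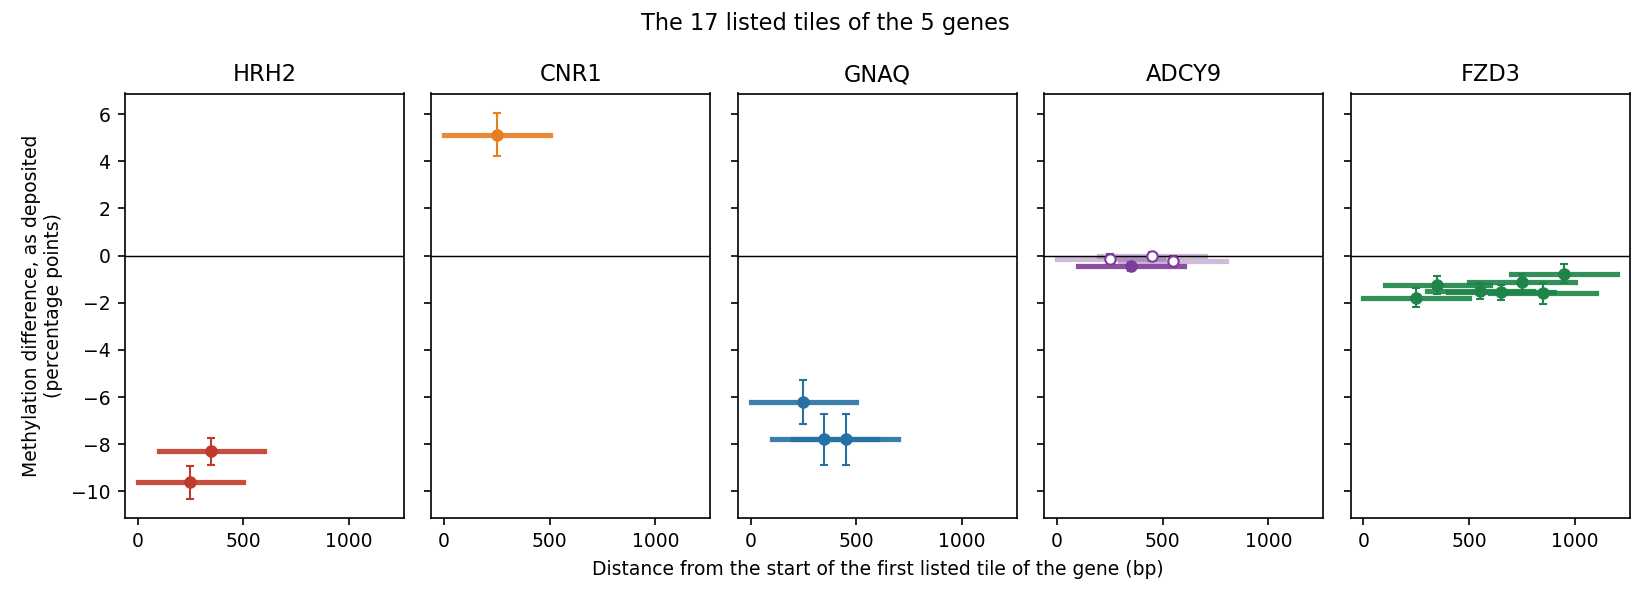
Deposited methylation difference (percentage points) of each of the 17 tiles against the distance in bp from the start of the gene's first listed tile; horizontal lines span the 500 bp of a tile, filled points have a q under 0.05, open points do not, and vertical bars show 1 nominal error derived from the deposited p-value. The HRH2 and GNAQ tiles lie between -9.61 and -6.21, the CNR1 tile lies at 5.13, and the ADCY9 and FZD3 tiles lie close to 0.

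Among the receptors, HRH2 (ENSBTAG00000044071) had the largest difference of the 5 genes. Its 2 tiles lie on chromosome 10 of ARS-UCD1.2, the assembly named in the submitters' processing notes, inside an intron of 20547 bp that runs from 5452719 to 5473265 on the minus strand. At the tile from 5462201 to 5462700 the difference was -9.61 percentage points, with p = 1.92e-43 and q = 9.06e-42 in the authors' deposited table. The tile from 5462301 to 5462800 followed at -8.29, for which the authors' deposited table has p = 5.52e-47 and q = 5.22e-45. Both tiles share 400 bp, so they are close to 1 measurement, and they lie near the middle of the intron, 47.4% and 47.8% of the way from its lower edge. The first has the largest difference of either sign among the 201 listed tiles of chromosome 10, a chromosome on which 48.8% of listed tiles were negative. It falls just short of 10 percentage points.

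The size of a difference divided by the normal deviate of its two-sided p gives a nominal error, which is a rough guide only, since the form of the authors' test is not stated and this error does not cover the spread between bulls unless their test did. For HRH2 the nominal errors were 0.695 and 0.576 percentage points, against a median of 0.498 over all listed tiles. Of the 727 listed tiles that overlap an intron, 37 tiles of 7 genes had a negative difference at least as large as that of HRH2, and these counts include HRH2 itself. Over the 540 genes, ordered by the largest difference of either sign, HRH2 stood at rank 23. This rank and those given below for the other genes are not matched for tiles per gene. A gene with more tiles has more chances of a large difference. No other tile was listed near HRH2, with the next ones 759601 bp below and 3476501 bp above.

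CNR1 (ENSBTAG00000054523) was the only one of the 5 genes with a positive difference. It has 1 tile, on chromosome 9 from 61768901 to 61769400, which lies wholly inside a coding segment of 1419 bp on the plus strand (61768617 to 61770035) and begins 284 bp after its start. Its difference was 5.13 percentage points, at p = 2.75e-08 and q = 4.38e-08 in the authors' deposited table, and the nominal error was 0.924. Of the 335 listed tiles that overlap coding sequence, this was the tile with the highest positive difference, while 23 of them were at least as large in either direction, the CNR1 tile included. The median over those 335 tiles was -0.154 percentage points, and 58.5% were negative. Among all 540 genes CNR1 had the rank 9 by its highest positive difference. With 1 tile and no listed neighbour within 959401 bp, its sign rests on a single window.

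FZD3 (ENSBTAG00000035084) had the most tiles, 7 on chromosome 8 that run together over 1200 bp from 10210101 to 10211300. All 7 lie in an intron of 23468 bp on the minus strand (10206056 to 10229523), between 18.3% and 21.3% of the way from its lower edge. All 7 were negative with a q under 0.05 in the authors' deposited table. Of the listed tiles of chromosome 8, 51.4% passed that q and 62.6% were negative, and of those overlapping an intron 71.5% and 70.4%. The 7 FZD3 tiles form 1 run of overlapping tiles, so they are not separate results. In order of position, the deposited table gives -1.78, -1.24, -1.50, -1.55, -1.13, -1.60 and -0.761 percentage points. The smallest q was 1.58e-06, at the tile from 10210501 to 10211000 (p = 9.30e-07 in the authors' deposited table). The values are small and similar, with nominal errors between 0.317 and 0.433 percentage points.

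Most FZD3 tiles share bases with one another, and of the 21 pairs of FZD3 tiles 5 share none. The first tile and the last, which share no base, had -1.78 and -0.761 in the authors' deposited table. The last tile is the weakest of the 7, with a deposited p of 0.0555 and a q of 0.0485, so that it passes by its q but not by its p. Among the 727 tiles overlapping an intron, 46.6% had a difference at least as large as the largest of FZD3, in either direction. FZD3 stood at rank 152 of the 540 genes. The next listed tile above FZD3 lies 78601 bp away at FBXO16, an F-box protein gene that neighbours FZD3 also in the RefSeq gene table of ARS-UCD2.0, and the 30 tiles of FBXO16 ran from -3.79 to 1.34 percentage points in the authors' deposited table.

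**Figure D2:**
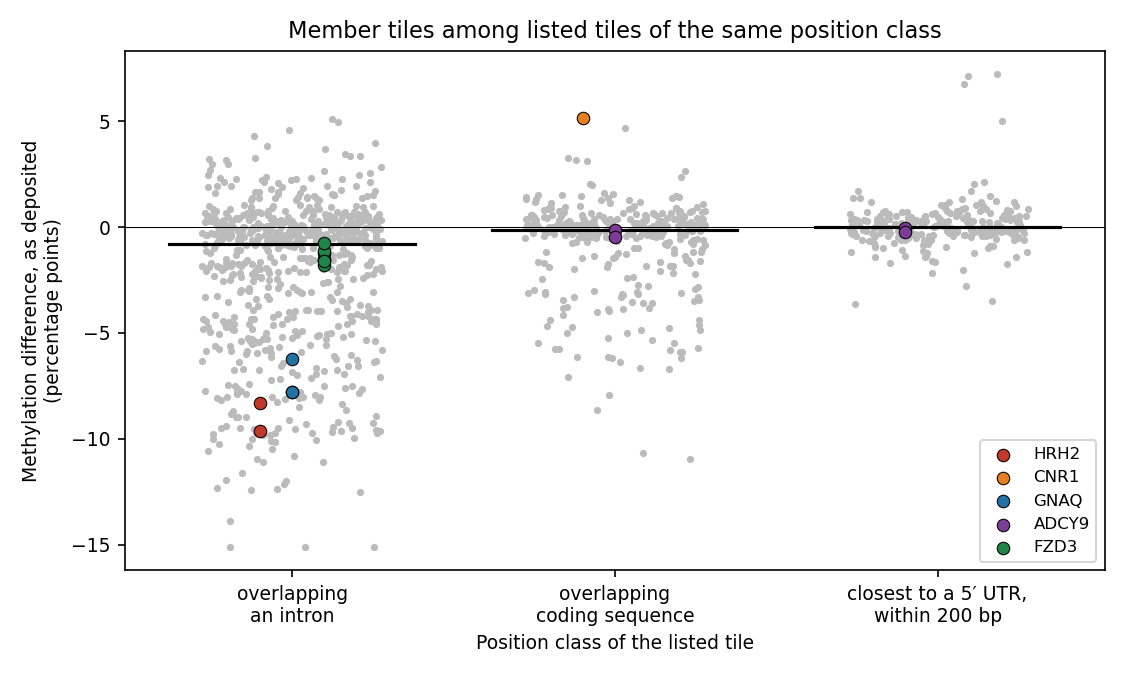
Deposited methylation difference (percentage points) of listed tiles that overlap an intron (727 tiles), overlap coding sequence (335) or lie within 200 bp of a 5′ UTR as their closest feature (240); grey points are other listed tiles, spread sideways at random, coloured points are tiles of the 5 genes and black lines are class medians. The HRH2 and GNAQ tiles lie in the lower part of the intron class, the FZD3 tiles near its median of -0.804, and the CNR1 tile above every other coding tile.

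GNAQ (ENSBTAG00000009789), the G protein subunit of the group, carried 3 negative tiles on chromosome 8, far from FZD3. They span 700 bp from 53905501 to 53906200 in an intron of 105119 bp on the minus strand (53890218 to 53995336), 14.8% to 15.0% of the way from its lower edge. The first tile stood at -6.21 percentage points, with p = 3.43e-11 and q = 1.02e-10 in the authors' deposited table. The second and the third both stood at -7.79, with p = 7.74e-13 and q = 2.46e-12 in the authors' deposited table, and their deposited values are the same in every digit. Of 5815 listed tiles that share bases with the tile before them, 232 (3.99%) repeat its p and difference in this way. The 3 GNAQ tiles are therefore at most 2 distinct measurements, and even these share 400 bp. The nominal errors were 0.937 and 1.09 percentage points, the largest among the 5 genes together with that of CNR1. A negative difference of at least 7.79 was held by 78 of the 727 intron tiles, from 11 genes, GNAQ included. GNAQ ranked 41 of the 540 genes.

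ADCY9 (ENSBTAG00000016629), the effector enzyme, had the smallest differences of the 5 genes, and its tiles are the only ones at the start of a gene. They lie on chromosome 25 from 3348501 to 3349300, around the 5′ UTR (3348680 to 3348720, minus strand) whose upper edge is taken as the start of the transcript. The first tile reaches 220 bp into the transcript and 280 bp upstream of it, and the fourth lies wholly upstream. From the first to the fourth tile the authors' deposited table gives -0.133, -0.459, -0.0343 and -0.220 percentage points. The second passed, with a p of 0.0146 and a q of 0.00392 in the deposited table, and the other tiles had q-values of 0.116, 0.175 and 0.0603. It shares 400 bp with each of its neighbours, which did not pass.

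Small values are common at such positions. The 240 listed tiles within 200 bp of a 5′ UTR had a median size of 0.404 percentage points and a median nominal error of 0.218, close to the 0.185 to 0.219 of the ADCY9 tiles. Of the 335 tiles overlapping coding sequence, 58.2% had a difference at least as large in size as the -0.459 of the second ADCY9 tile. ADCY9 ranked 383 of the 540 genes by its largest difference.

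**Figure D3:**
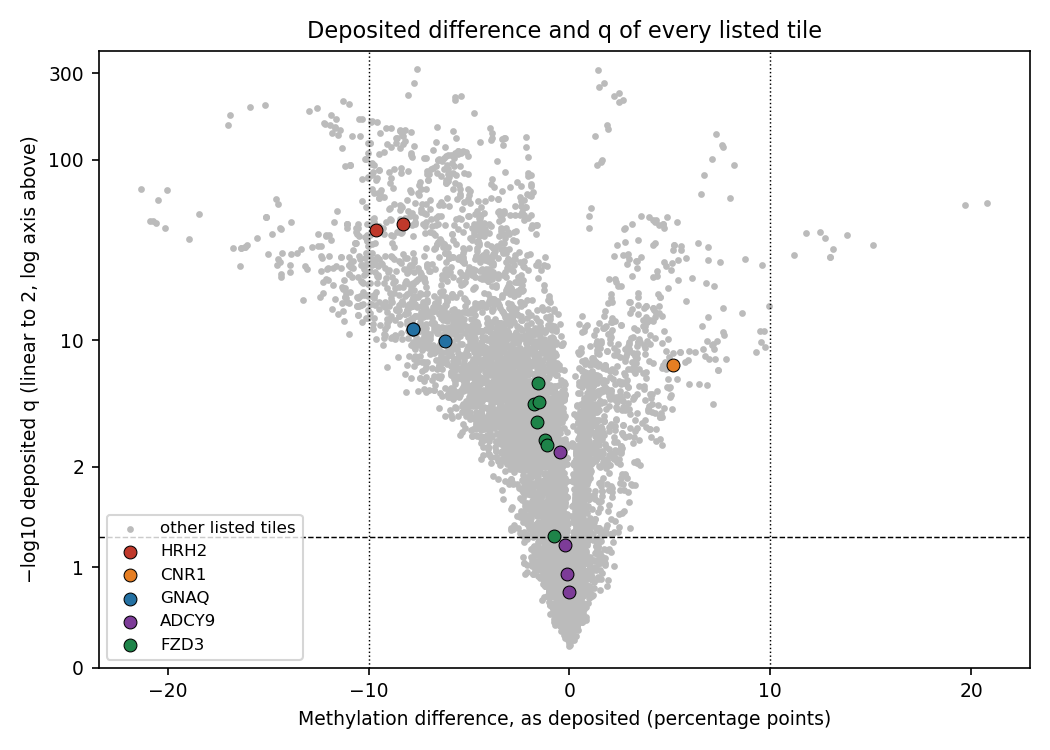
Deposited q as −log10 (linear up to 2, log axis above) against deposited methylation difference (percentage points) for all listed tiles, with the tiles of the 5 genes in colour; 27 tiles with a deposited q of 0 are not drawn, the dashed line marks a q of 0.05 and the dotted lines mark 10 percentage points. No tile of the 5 genes lies outside the dotted lines, and 3 ADCY9 tiles lie below the dashed line.

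The deposited q that goes with a given p differs between the chromosomes of these genes. On chromosomes 8, 9, 10 and 25, each deposited q equals the Benjamini-Hochberg value computed over that chromosome's listed tiles times a constant. The constant is 0.445 on chromosome 8 (FZD3 and GNAQ), 0.445 on chromosome 9 (CNR1), 0.470 on chromosome 10 (HRH2) and 0.202 on chromosome 25 (ADCY9). The largest relative departure from it on these chromosomes was 3.34e-09. The highest p that still passed a q of 0.05 was 0.0567 on chromosome 8, 0.0654 on chromosome 9, 0.0415 on chromosome 10 and 0.191 on chromosome 25. This limit depends on the Benjamini-Hochberg ranks within the chromosome as well as on the constant. Without the constant, the Benjamini-Hochberg value within the chromosome was 0.0194 for the ADCY9 tile that passed and 0.109 for the last FZD3 tile. With that value in place of q, 13 of the 17 tiles pass, beside 62.2% of all listed tiles. Each of the 5 genes has a tile that passes, and the share of all genes under this setting was not computed.

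**Figure D4:**
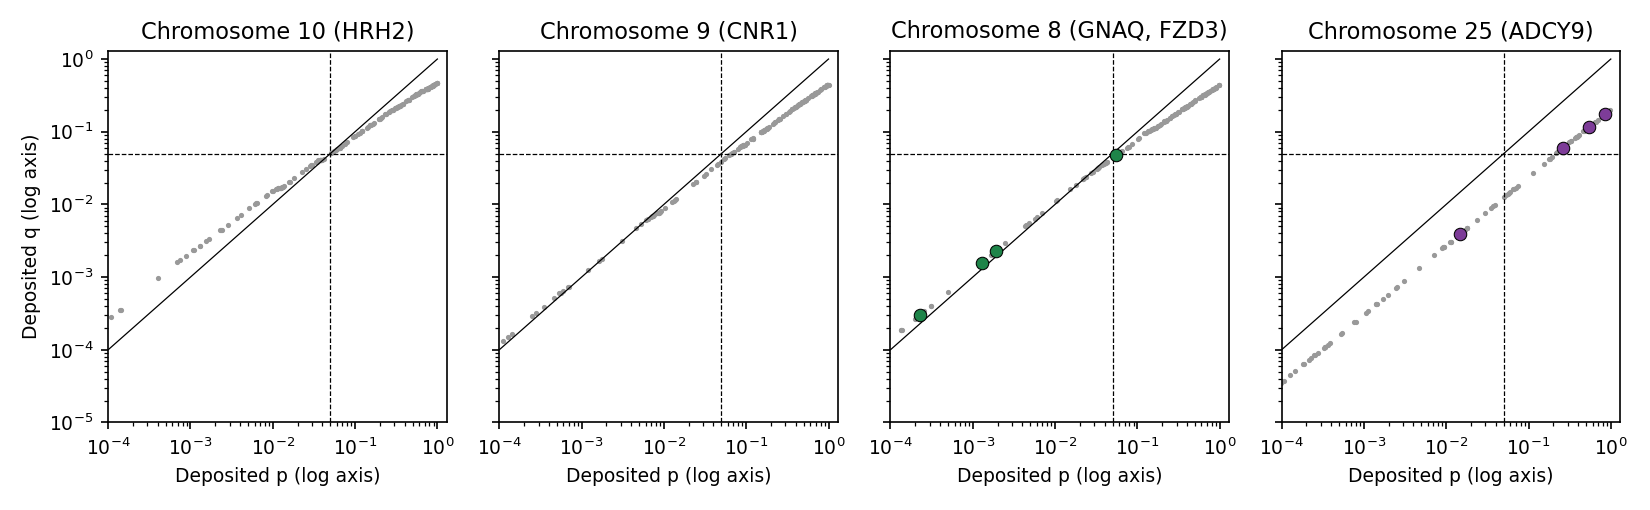
Deposited q against deposited p (log axes, cut at 1e-04 for p) for the listed tiles of the 4 chromosomes that hold the 5 genes; coloured points are tiles of the named genes, the solid line marks q equal to p and dashed lines mark 0.05. Tiles with smaller p, among them all tiles of HRH2, CNR1 and GNAQ, lie outside the plotted range; the ADCY9 tiles have a q far below their p.

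Other listed genes of the same pathways were taken from lists of description patterns. For receptors of this class there were 9 further genes, of which 8 had a tile at a q under 0.05, 4 with negative and 4 with positive differences, beside the background of 73.3% of genes. Their 19 tiles had a median of 0.375 percentage points, beside -0.947 over all listed tiles. Several of these genes have their largest difference in coding sequence or nearest to a 5′ UTR. Listed tiles that overlap coding sequence had a median of -0.154, and those within 200 bp of a 5′ UTR as their closest feature 0.0242. The -0.947 is thus not a background matched for position. An adhesion G protein-coupled receptor E2-like gene on chromosome 7 had -4.87 in its coding sequence in the authors' deposited table (q = 8.61e-08). A second gene of that description on the same chromosome had 2.21 in the authors' deposited table, where its q is 0.0443 and its p 0.0598, and as related copies both are uncertain. OXTR, the oxytocin receptor, had -1.56 in the authors' deposited table (q = 0.00380). The gene that did not pass was FRZB, which the word frizzled brought in and which encodes a secreted Wnt antagonist, not a receptor. HRH2 and CNR1 had larger differences in size than each of the 9 genes.

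Chemosensory receptors, a multicopy family whose reads may be placed on related copies, had 11 genes and all passed in at least 1 tile, 9 with negative differences, 1 with positive and 1 with both, beside the background of 73.3% of genes. Their 169 tiles had a median of -2.35 percentage points, but 143 of them belong to 3 genes and lie 202823 to 268623 bp from the gene. The 26 tiles of the other 8 genes had a median of -2.30. Since any 1 tile makes a gene pass, the 73.3% is not a background matched for tiles per gene. The largest difference in the authors' deposited table was -20.9, in a tile downstream of an olfactory receptor 4C6-like gene and 1135 bp from its coding sequence. The next were -8.67 nearest to taste 2 receptor member 1, -8.12 nearest to olfactory receptor 7A17 and -7.23 nearest to an olfactory receptor 4P4-like gene. All of these but the first are intergenic tiles, between 13206 and 250123 bp from the gene, and these genes are reported as uncertain.

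Downstream of the receptors, GNAL was the only other G protein subunit, at -0.613 percentage points and a q of 0.0428 with a p of 0.187 in the authors' deposited table. GNAQ differed by -7.79 at its largest tile. Of 5 further cyclic nucleotide and calcium effectors, 2 passed (40%, beside 73.3% of all genes), both negative. PDE5A, which breaks down cyclic GMP, had its largest difference in an intron, -10.3 in the authors' deposited table (q = 5.03e-60). HCN2, a channel gated by cyclic nucleotides, had -0.373 (q = 0.0287 in the deposited table), while CAMK2D, CACNA2D1 and PDE4DIP did not pass. On the Wnt list, CXXC4, an inhibitor of Wnt signalling, had 4 tiles that passed with negative differences, the largest of them -10.8 percentage points in the authors' deposited table at 57808 bp from the coding sequence, and FRZB had none. Over the lists together, 23 of 27 genes had a tile that passed (85.2%, beside 73.3% of all genes), 17 negative, 5 positive and 1 with both signs. Counting only tiles within 5000 bp of the feature, 16 genes passed, and the share of all genes under that limit was not computed. These 27 genes hold 271 tiles, and all 540 genes hold 3318. A gene with more tiles has more chances to pass, so the 73.3% is not matched for tiles per gene.

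**Figure D5:**
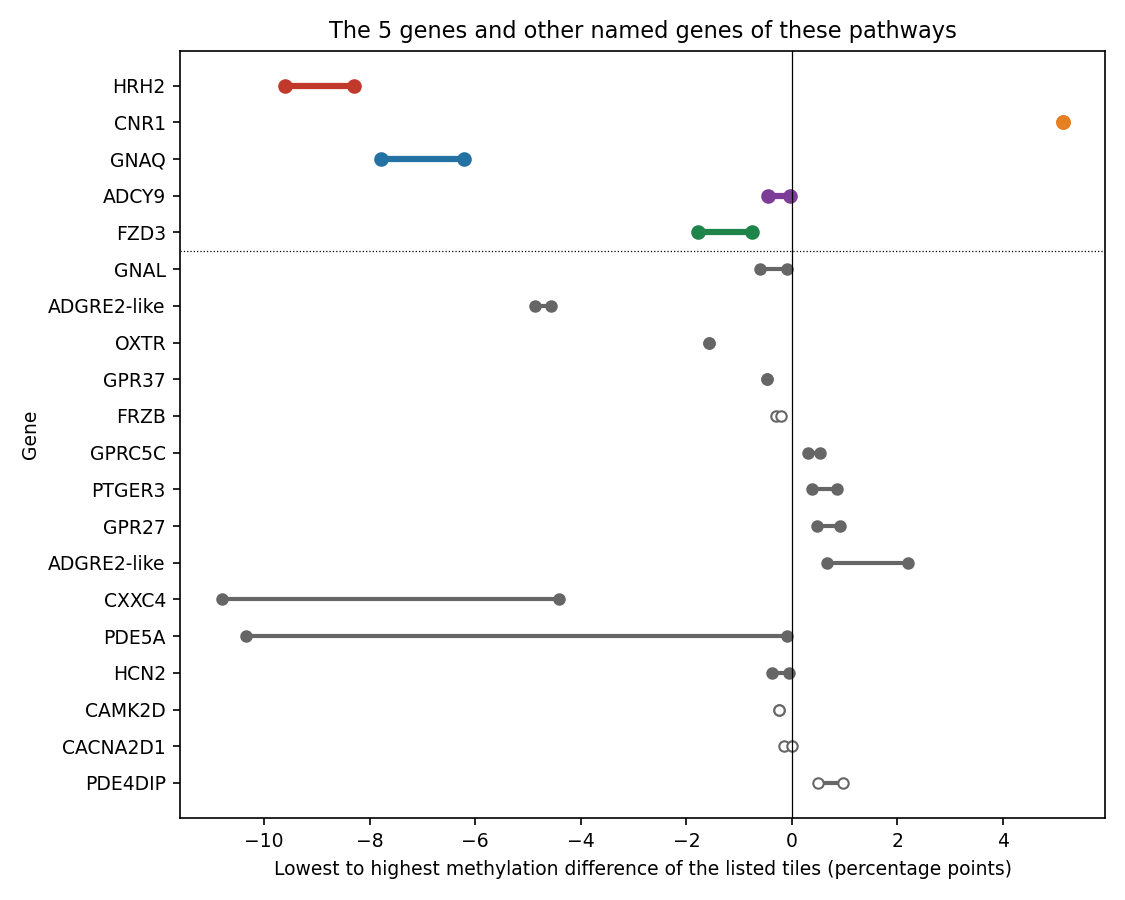
Lowest and highest deposited methylation difference (percentage points) over the listed tiles of each of the 5 genes (above the dotted line, coloured) and of other listed genes of these pathways that were given a name, without chemosensory receptors (grey); grey filled points are genes with a tile at a q under 0.05, open points are genes with none. HRH2 and GNAQ lie on the negative side with CXXC4 and PDE5A, and CNR1 reaches the highest value shown, 5.13.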

How the data were processed

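Per the file headers, the authors' deposited table pairs every tile with its p-value and q-value and with a methylation difference, a signed score read as percentage points. Trimmomatic, Bismark and methylKit appear in the submitters' processing notes, as do the builds ARS-UCD1.2 and bosTau9, with no versions or settings. Tiles are 500 bp long with starts on a grid of 100 bp. The table has 0 columns of single samples, so no new test between the 6 low BFI and 6 high BFI samples was run, and the depth per sample is unknown. For 399 listed tiles, feature edges deposited with the start above the end were swapped. Members and pathway lists were matched on the annotation description and were chosen with earlier results of these data known. Named are the 5 genes and, from each list, the genes under the q threshold if at most 6, otherwise the 4 with the largest difference. Of these, 1 gene is not reported here. FRZB, CAMK2D, CACNA2D1 and PDE4DIP, which did not pass, the other genes drawn in the figure of pathway genes and FBXO16 fall outside this rule and were named after their values were seen. No gene is named for a like pattern, since 1 comparison gives no pattern over samples. All 20 symbols given to descriptions by hand lie on the same chromosome in the RefSeq table of ARS-UCD2.0, used for names and neighbours only. Benjamini-Hochberg values, nominal errors and runs of overlapping tiles were computed with Python 3.11.15, NumPy 2.4.6, SciPy 1.17.1 and pandas 2.3.3, with the code tested on simulated data, and figures were drawn with matplotlib 3.10.9. Alternatives were another q threshold, the deposited p, Benjamini-Hochberg values, 1 tile per run, a limit of 5000 bp and minimum differences.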

Additional observations from a re-analysis of the deposited data

How the results depend on the processing

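Counts at a q under 0.05 came to 14 member tiles, 13 of them negative, in 5 genes, and to 23 other pathway genes. With 1 tile per run of overlapping tiles, the first by position, 4 member tiles passed, 3 of them negative, of 5 such tiles, beside 63.6% of all such tiles, and ADCY9 dropped out. With a minimum difference of 2 percentage points, 6 member tiles passed (35.3%, below the 41.9% of all listed tiles), 5 of them negative, in 3 genes (HRH2, CNR1 and GNAQ), and 13 other pathway genes. At a minimum of 10 percentage points 0 member tiles passed. At a minimum of 5 in its place 6 did (35.3%, above the 15.4% of all listed tiles). The count was also 6 at a minimum of 2, where the share of all listed tiles was 41.9%. Benjamini-Hochberg values within the chromosome, an alternative chosen after seeing the data, a q under 0.01, the deposited p and Benjamini-Hochberg values over all listed tiles each left 13 member tiles (76.5%) in 5 genes, 12 of them negative. The shares of all listed tiles under these settings were 62.2%, 59.7%, 65.8% and 62.5%. A limit of 5000 bp could change no member count, since all 17 member tiles lie within it (66.3% of all listed tiles within it passed). A minimum of 1 percentage point left 12 member tiles in 4 genes, beside 56.2% of all listed tiles. The other pathway genes that passed fell from 23 to 16 with the limit of 5000 bp or the minimum of 1 percentage point. They fell to 17 with 1 tile per run or a q under 0.01. Benjamini-Hochberg values within the chromosome left 18, those over all listed tiles 19 and the deposited p 20. Shares of all genes under these alternative settings were not computed. No paired analysis was possible because only the authors' finished comparison was used, with no values per sample, and the groups share no replicate numbers. Leaving out a sample was not possible for the same reason. Overlapping tiles share cytosines, and with the depth unknown it cannot be said which small differences, such as those of ADCY9, lie within the precision of the reads.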

Other observations

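The patterns for receptors missed OXER1 and PRLHR, found when the table's descriptions were read and so chosen after their values were seen. OXER1, a receptor for oxidised fatty acids, had 0.913 and 1.43 percentage points in tiles that overlap its coding sequence on chromosome 11 (q = 0.00666 and 6.54e-06 in the authors' deposited table). PRLHR, the receptor for prolactin releasing hormone, had -0.889 and -0.763 in its 3′ UTR on chromosome 26 (q = 0.0197 and 0.0140 in the authors' deposited table).

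The neighbours of the 5 genes in the RefSeq gene table include SPACA1, an acrosome gene next to CNR1, GNA14, a G protein subunit next to GNAQ, and CREBBP, a coactivator of cyclic AMP responsive transcription next to ADCY9. Of 9 neighbours looked up by description, 1 had listed tiles, FBXO16, with 15 of its 30 tiles at a q under 0.05, 11 negative and 4 positive, beside 71.8% of all listed tiles and 51.4% of those on chromosome 8.

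The relation of q to the Benjamini-Hochberg value within a chromosome held with a constant on 23 of the 27 chromosomes, with constants between 0.00488 and 0.611. On chromosomes 3, 7, 15 and 16 the ratio was not constant, and the cause was not tested. PDE4DIP, HCN2, both E2-like receptor genes and the olfactory receptor 4C6-like and 7A17 genes lie on these chromosomes.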
